A study of Rattus norvegicus with 6 samples.

Results

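The RING finger (RNF), tripartite motif (TRIM) and membrane-associated RING-CH (MARCH) genes encode large groups of RING ubiquitin ligases. They were measured here in the islets of Wistar males at ages of 3 and 12 months. The members were chosen by symbol, as every gene named Rnf, Trim or Marchf followed by a digit. The family itself was picked because Marchf7 had a strong rise at 12 months, so the values of Marchf7 are a description and carry no test. The arrays held 103 such genes among 13888 genes that could be named, of which 57 were RNF, 39 TRIM and 7 MARCH genes.

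The study asked how the islet changes with age, and compared 3 arrays of 12-month-old with 3 arrays of 3-month-old animals. Islets were freed from the pancreas by collagenase, and total RNA was isolated with the miRNeasy kit and hybridised to 1-colour Arraystar/Agilent arrays. The RNA came from the islets of 3 rats of each age, and the labels give no transgene, drug or diet. The p-values measure the spread between the 3 arrays of an age.

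Ubiquitin is activated by an E1 enzyme, passed to an E2 conjugating enzyme and attached to its substrate by an E3 ligase, which gives the reaction its specificity. RING ligases hold the loaded E2 beside the substrate, whereas HECT and RING-between-RING ligases first take ubiquitin onto a cysteine of their own. Depending on the chain that is built, the mark sends a protein to the proteasome, to the lysosome or into a signalling complex. In beta cells, ubiquitin ligases of the endoplasmic reticulum are known for clearing misfolded proteins, of which proinsulin is a major source.

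The arrays of the 2 ages differed in ways that touch every value below. Between 59.5 and 64.2% of all probes were well above background at 12 months and between 73.0 and 77.4% at 3 months. The arrays of each age were also scanned at 1 separate time, and the scan cannot be told apart from age. Signals are log2 values after quantile normalisation, and differences are 12 months minus 3 months. Islet markers bore out the labelled tissue: 6 of 6 beta cell markers were above background on all arrays, with a mean log2 signal of 15.7 to 16.3 at 12 months and 14.8 to 15.1 at 3 months. These markers did not move together. Slc30a8, Ucn3 and Iapp differed by 3.71, 1.49 and 0.95, and Ins1, Ins2 and Nkx6-1 by 0.10, −0.12 and −0.22. In whole islets, fewer cells of a type and less RNA per cell cannot be told apart. Acinar cell markers were also bright, with a mean log2 signal of 15.2 to 16.7 at 12 months and 15.4 to 16.5 at 3 months. Marker means of stellate and mesenchymal cells were higher at 12 months (11.6 to 12.7 against 10.4 to 11.2). Those of endothelial cells (9.28 to 9.69 against 10.02 to 10.17) and of nerve and Schwann cells (6.67 to 7.32 against 7.81 to 8.21) were lower. By gene, 6 of 7 stellate and mesenchymal markers were higher, 5 of 7 endothelial markers lower and 8 of 9 nerve and Schwann markers lower. Of these 1, 0 and 1 passed (limma adjusted p under 0.05). The part of these cell types in the values below was not tested.

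Of the 103 genes, 91 stood well above background on 3 or more arrays and were tested, and 84 were above background on all 6. Rnf222 and Trim67 lay just inside this limit, with 3 arrays above background, all of 3-month islets. Trim67 gave 3.96, 4.89 and 2.52 at 12 months and 6.29, 4.31 and 4.77 at 3 months, so that its ages overlapped, and it did not pass the test (limma adjusted p = 0.243). Its detection bound was at least 1.25-fold lower at 12 months, and no bound could be given for Rnf222. Rnf40, Rnf43 and Trim42 lay just outside it, with 2 arrays each, again only at 3 months. Trim42 gave log2 signals of 2.02, 2.02 and 2.03 at 12 months and 4.16, 2.88 and 5.49 at 3 months. Rnf40 gave 3.40, 2.04 and 2.06 against 2.02, 3.67 and 3.92, and Rnf43, a ligase that removes Wnt receptors, gave 4.21, 3.10 and 5.09 against 4.48, 3.37 and 4.42. The ages overlapped in these last 2 genes. Trim29 was above background on 1 array, and Trim17, Trim36, Trim44, Trim52, Trim54, Trim63, Rnf133 and Rnf215 on none.

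The members did not share 1 direction. Leaving out Marchf7, 2 members, Trim35 and Rnf41, rose past an adjusted p of 0.05 (limma, Benjamini-Hochberg over all 17941 probes tested), where 4.88% of all 11188 genes tested did so. In the other direction 3 members, Trim10, Trim43a and Rnf26, fell, against 2.98% of all genes. Without the 12-month array 1 or 3 or the 3-month array 1 or 2, Trim35 alone was called, and without the 3-month array 3 Trim35 and Rnf41 were. Without the 12-month array 2 the count was again 5, of which 3, Trim35, Rnf41 and Trim10, were among the calls above. Over all genes the 879 calls became 121, 1141 and 151 without the 12-month arrays 1, 2 and 3. They became 173, 608 and 256 without the 3-month arrays 1, 2 and 3. With the looser cut-offs that the study used, more than 2-fold and p under 0.05 before adjustment, 5 members were higher and 7 lower, where 9.81% of all genes were higher and 9.64% lower. The p-values here came from limma without pairing, whereas the supplement of the study names a paired t-test for its lists of changed mRNAs. The 3 arrays of one age did not overlap those of the other for 12 members that were higher (17% of all genes) and 20 that were lower (22.1% of all genes). Of the 91 members tested 45.1% had a difference above 0, compared with 43.5% of all genes.

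The median log2 difference was −0.08 for the RNF genes, −0.40 for the TRIM genes and 0.24 for the MARCH genes, or 0.15 without Marchf7, beside −0.13 for all genes tested. The TRIM median rested on which genes were detected, as it was −0.40 over the 31 tested and −0.04 over all 39 on the array. When arrays were instead shifted to a common 75th percentile, the median of all genes moved to −0.34, and those of the RNF, TRIM and MARCH genes were −0.29, −0.39 and 0.0042. Under that scaling the looser threshold called 3 members higher and 12 lower, and the share of higher genes among all genes it called fell from 50.4% to 32.1%. The spread between arrays of one age was modest in these genes. Its median SD over members was 0.290 at 12 months and 0.308 at 3 months, compared with 0.332 and 0.380 over all genes.

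**Figure D1:**
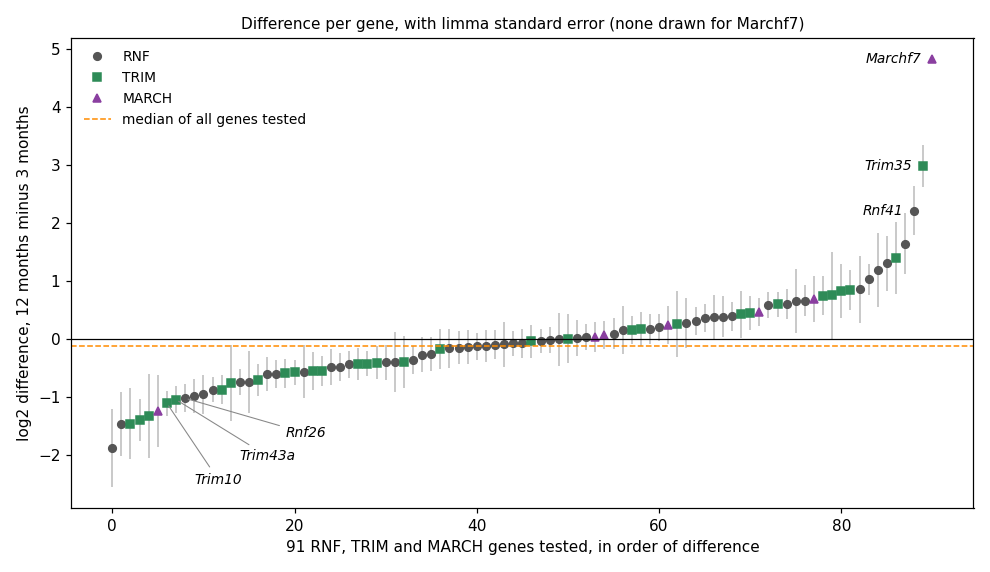
Log2 difference (12 months minus 3 months, y axis) of the 91 members tested, in rank order on the x axis, with the limma standard error as a grey bar and RNF, TRIM and MARCH genes as circles, squares and triangles. Most members lie near the dashed line, the median of −0.13 over all genes, and Marchf7, Trim35 and Rnf41 stand at the upper end with 4.83, 2.98 and 2.21.

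Most MARCH proteins are ligases of cellular membranes that mark receptors and other membrane proteins for removal, and this is not said here of Marchf7 or Marchf10. Marchf7, also known as axotrophin, was the gene for which the family was picked. Its log2 signal was 9.89, 10.42 and 10.11 on the 12-month arrays and 5.46, 5.23 and 5.24 on the 3-month arrays, a difference of 4.83. The probe was above background on all 6 arrays, and the ages were far apart on every one of them. The size of this difference depended on the background correction, as it was 3.28 with a model-based correction (normexp).

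None of the other 6 MARCH genes passed either threshold. Marchf11 differed by 0.69 (limma SE 0.39, adjusted p = 0.258), with log2 signals of 8.38, 9.40 and 8.64 against 7.49, 8.41 and 8.44, and by 0.40 without the 12-month array 2 or 0.38 without the 3-month array 1. Marchf2, a ligase of the endocytic pathway, differed by 0.47 (limma adjusted p = 0.219), and its arrays did not overlap: 13.04, 13.15 and 12.92 at 12 months, and 12.61, 12.80 and 12.31 at 3 months. Marchf10 was lower by its mean, with a difference of −1.24 (limma adjusted p = 0.211), but 1 of its 3-month arrays carried most of that, at 8.51 beside 6.08 and 6.78, and without it the difference was −0.55. Marchf3, Marchf5, a ligase of the mitochondrial outer membrane, and Marchf8, which removes surface receptors, had differences of 0.24, 0.03 and 0.07, and their ages overlapped. The sign of these 3 was not stable, as Marchf3 became −0.09 and Marchf8 −0.22 with the 75th percentile shift, and Marchf5 −0.04 without the 12-month array 3.

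Windows around the annotated starts of Marchf7 and of called members found in RefSeq are given next. Each runs from 75 bases before to 25 bases after the annotated start, 5′ to 3′, on assembly GRCr8, with CpG dinucleotides in capitals. Trim35 had no entry. In Rnf26 and Trim43a the annotated start is the first base of an atg. It may thus be a start codon and not a start of transcription.
Marchf7 (chr3:65095473-65095572, plus strand): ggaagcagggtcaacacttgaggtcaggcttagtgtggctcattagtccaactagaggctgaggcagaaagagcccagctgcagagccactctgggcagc
Rnf41 (chr7:1422679-1422778, plus strand): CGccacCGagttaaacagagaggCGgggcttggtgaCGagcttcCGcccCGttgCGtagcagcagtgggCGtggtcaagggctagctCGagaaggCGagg
Rnf26 (chr8:53353562-53353661, minus strand): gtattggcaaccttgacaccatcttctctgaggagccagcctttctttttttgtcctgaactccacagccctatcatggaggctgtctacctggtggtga
Trim43a (chr8:98442381-98442480, plus strand): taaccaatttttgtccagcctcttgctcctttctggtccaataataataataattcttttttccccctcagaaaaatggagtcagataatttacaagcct

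The Rnf41 window was rich in CpG, with 10 of them, whereas those of Marchf7, Rnf26 and Trim43a held none. The windows of Rnf26 and Trim43a may not lie at a promoter, so their counts only describe the bases printed. Over the 300 bases from 250 before the start, Rnf41 held 20 CpG dinucleotides, Rnf26 held 7, Trim43a 2 and Marchf7 1. The median was 20 over the 84 members matched and 7 over all 27457 promoters in the table. Marchf7 was at the low end of the MARCH genes, whose 7 promoters held between 1 and 39 with a median of 25. Among the 84 matched members, the letters GGGCGG were found in 57.1% of the promoters (34.9% of all promoters), CCAAT in 40.5% (37.8%), TATAAA in 11.9% (14.3%) and GAAANNGAA in 9.52% (9.50%), counting both strands. None of these motifs contains another. The promoter of Rnf41 held GGGCGG, the 300 bases taken for Rnf26 and Trim43a held CCAAT, and the promoter of Marchf7 held none of the 4.

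Trim35 showed the largest difference of the members after Marchf7. It is a TRIM protein with a PRY-SPRY domain, the substrate-binding end found in many TRIM ligases, and is known from blood cell differentiation and from the control of pyruvate kinase M2. Its log2 signal was 14.19, 14.04 and 14.45 at 12 months and 11.14, 11.91 and 10.68 at 3 months. All 12-month arrays were thus above all 3-month arrays, by a difference of 2.98 (limma SE 0.36, adjusted p = 0.00904), or 7.91-fold. It passed the threshold in each of the 6 fits that left out 1 array, with differences of 2.70 to 3.32. It did not pass with the methods' t-test, where the adjusted p over all probes was 0.0513, or with the 4 arrays that share a name ending, where limma gave an adjusted p of 0.136. For any single gene, permuting the 6 arrays exactly gives 20 arrangements, and the smallest two-sided p is then 0.1.

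Rnf41, also called Nrdp1, is a ligase that brings down ErbB3 and other receptors. Its log2 signal was 8.54, 9.04 and 8.40 at 12 months and 5.77, 6.30 and 7.28 at 3 months, with no overlap of the ages. The difference was 2.21 (limma SE 0.42, adjusted p = 0.0296), or 4.62-fold. It passed in 2 of the 6 fits that left out 1 array, those without the 12-month array 2 or the 3-month array 3, where the adjusted p was 0.0470 and 0.0306. In the remaining 4 fits it was between 0.0693 and 0.101.

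The fallen members were separated by little more than 2-fold, with arrays that lay close together within an age. Trim10, a PRY-SPRY TRIM protein known from red blood cell development, gave 7.89, 7.97 and 8.06 at 12 months and 9.08, 9.22 and 8.96 at 3 months. It fell by 1.12 on the log2 scale (limma SE 0.22, adjusted p = 0.0312). Markers of red blood cells overlapped between the ages, with a mean log2 signal over 5 genes of 8.42 to 10.2 at 12 months and 8.97 to 10.2 at 3 months. Their part in the fall of Trim10 was not tested. Trim43a, of a group known from the early embryo, gave 6.28, 6.40 and 6.31 against 7.30, 7.64 and 7.20, and fell by 1.05 (limma SE 0.23, adjusted p = 0.0427).

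Rnf26, a membrane ligase of the endoplasmic reticulum that acts on endosome positioning and on the DNA sensor adaptor STING, gave 10.92, 11.16 and 10.80 at 12 months and 12.03, 11.75 and 12.18 at 3 months. It fell by 1.03 (limma SE 0.24, adjusted p = 0.0498), which lay at the threshold. Of the 6 fits that left out 1 array, Trim10 passed in 1, without the 12-month array 2, and Trim43a and Rnf26 in none.

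**Figure D2:**
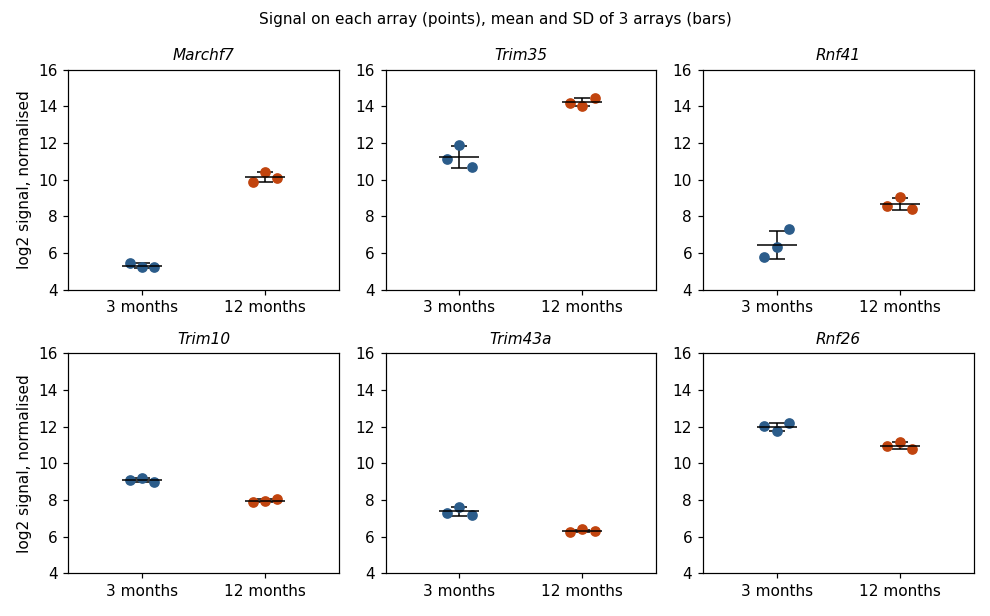
Normalised log2 signal (y axis) of Marchf7 and the 5 members that passed the adjusted threshold, on each 3-month (blue) and 12-month (red) array, with the mean and SD of 3 arrays as bars. In every panel the ages are separate, and the gap is widest for Marchf7, at 4.83, and narrowest for Rnf26, at −1.03.

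Of the genes that passed the looser threshold alone, some depended on a single array or on the background correction. Rnf135, also called Riplet, which switches on the RNA sensor RIG-I, had log2 signals of 7.77, 7.46 and 7.68 against 4.84, 7.00 and 6.15. Its difference of 1.64 gave an adjusted p of 0.0918 (limma), and the 3-month array 1 lay well below the rest. The difference was 1.06 without that array and 0.99 with the normexp correction. Rnf152, a lysosomal ligase that acts on mTORC1 signalling through RagA, gave 5.69, 6.17 and 6.84 against 4.08, 5.50 and 5.21 (difference 1.30, limma adjusted p = 0.114). It was 0.56 with normexp, 0.80 with the 75th percentile shift, 0.57 with the 4 arrays that share a name ending, and 0.88 without the 3-month array 1. Rnf13, an endosomal and lysosomal membrane ligase, was the tightest of this group, with 12.39, 12.60 and 12.11 against 10.99, 11.57 and 11.45 (difference 1.03, limma adjusted p = 0.0621). Its difference was 0.85 with the 75th percentile shift, 0.85 without the 3-month array 1 and 0.91 without the 12-month array 2. It passed the adjusted threshold in 3 of 16 alternatives.

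Among those that were lower, Rnf44 was above background on 2 of 3 arrays at 12 months, with 4.13, 5.72 and 5.74 against 6.37, 6.52 and 8.35 (difference −1.88, limma adjusted p = 0.112). The difference was −1.01 with normexp and −1.24 without the 3-month array 3. Rnf227 gave 6.77, 7.70 and 6.27 against 9.41, 7.73 and 8.02, where the nearest arrays of the 2 ages were 7.70 and 7.73 (difference −1.47, limma adjusted p = 0.123), and the difference was −0.96 without the 3-month array 1 and −0.64 with the 4 arrays that share a name ending. Trim40, a TRIM gene known from the gut, gave 6.07, 6.73 and 5.70 against 7.99, 7.17 and 7.53 (difference −1.40, limma adjusted p = 0.0590). It was the nearest of these to the adjusted threshold, and its difference was −0.91 with normexp. Trim21, the cytosolic antibody receptor, also passed the looser threshold, with 8.23, 8.65 and 9.64 against 9.21, 10.32 and 11.39, but its ages overlapped (difference −1.47, limma adjusted p = 0.153), and the difference was −0.93 without the 3-month array 3. The mean log2 signal over 11 immune markers overlapped as well, at 8.61 to 9.98 and 8.88 to 9.62, and its part in the values of Trim21 was not tested.

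The members were then grouped by domain and site of action. The 18 tested PRY-SPRY TRIM genes included 1 that rose and 2 that fell, with a median of −0.42. The 11 RNF genes of the endoplasmic reticulum and other membranes included 1 that fell, Rnf26, and had a median of −0.16. Of the 3 tested RNF genes with a protease-associated domain, none passed the adjusted threshold and Rnf13 alone passed the looser one. Their differences ran from −0.26 for Rnf167 to 1.03 for Rnf13. The TRIM genes with a COS box, which binds microtubules, gave 3 tested members and no call.

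All 6 RING-between-RING ligases were lower by their mean, with a median of −0.36, but none passed either threshold. Over all genes tested 56.5% were lower and the median was −0.13. Rnf144b was the one whose ages did not overlap, at 5.89, 6.32 and 6.23 against 6.81, 6.56 and 6.91 (difference −0.61, limma adjusted p = 0.140). Rnf31, the catalytic subunit of the linear ubiquitin chain complex, differed by −0.57 (limma adjusted p = 0.410), and Rnf144a by −0.74 (limma adjusted p = 0.356). Rnf217, Rnf19a and Rnf216 had differences of −0.15, −0.12 and −0.08, each smaller than its standard error of 0.29, 0.27 and 0.22. With the normexp correction 5 of the 6 were lower, and without the 12-month array 3 it was 4.

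None of the 5 tested ligases of DNA damage and chromatin passed either threshold. Rnf138, which acts in the repair of DNA breaks, was the one whose arrays did not overlap, at 11.17, 11.38 and 11.22 against 10.56, 10.64 and 10.82 (difference 0.59, limma SE 0.22, adjusted p = 0.125). Rnf8 and Rnf168, which mark histones at DNA breaks in sequence, differed by −0.37 (limma SE 0.24) and 0.03 (limma SE 0.23). Rnf20, which ubiquitinates histone H2B, differed by −0.10 (limma SE 0.25), and Rnf4, which reads SUMO chains, by 0.27 (limma SE 0.43). Trim28, the KAP1 corepressor and the 1 member on the array with a PHD finger and bromodomain, differed by 0.16 (limma SE 0.24, adjusted p = 0.671).

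The NHL-repeat group shows how much the choice of probe can matter. Trim3 gave 9.51, 9.61 and 9.35 against 10.07, 10.11 and 10.01 (difference −0.57, limma adjusted p = 0.126), with no overlap, and Trim32, a ligase linked to muscle disease, differed by −0.04 (limma SE 0.29). Trim2, a neuronal ligase, was the only member with a second probe. The brighter probe, which stands for the gene in all counts here, gave 11.69, 11.93 and 11.25 against 10.96, 11.51 and 11.07, a difference of 0.44 (limma SE 0.29, adjusted p = 0.315). The other gave 9.76, 10.14 and 9.66 against 6.57, 7.68 and 7.55, a difference of 2.59 (limma SE 0.36, adjusted p = 0.0129). Of the 2 probes of Trim2, the dimmer one alone passed the threshold.

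The TRIM genes known from striated muscle were dim or overlapped. Trim54 and Trim63 were above background on no array, and Trim55 differed by −0.40 and Trim72 by 1.40, both with overlapping ages and adjusted p of 0.549 and 0.176 (limma). The mean log2 signal over 8 muscle markers was lower at 12 months, at 6.24 to 6.84 against 7.16 to 7.93, and 3 of the 8 passed as lower. Their part in the values of Trim55 and Trim72 was not tested.

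**Figure D3:**
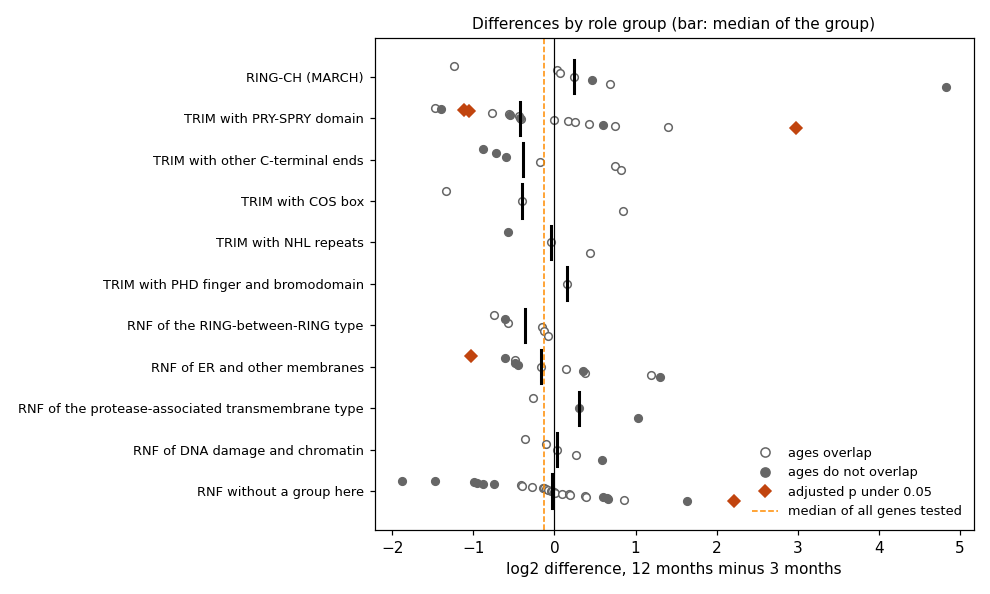
Log2 difference (x axis) of each member tested, by role group (y axis), with the group median as a black bar. Open circles mark genes whose ages overlap, filled circles those whose ages do not, and red diamonds those with an adjusted p under 0.05. The 6 RING-between-RING genes all lie below 0, and Marchf7, for which no p was computed, lies apart at 4.83.

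A set of neighbours on chromosome 20 was noticed once the values had been seen, and it is described without a test. Rnf39, Trim31, Trim40, Trim10, Trim26 and Trim39 follow each other there in the GRCr8 gene order, in the region known for the major histocompatibility complex. In all 6 the 12-month mean was lower, and in 5 the ages did not overlap. Trim10 alone passed the adjusted threshold.

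Rnf39 gave 8.47, 8.75 and 8.44 at 12 months and 9.94, 9.59 and 9.09 at 3 months, a difference of −0.99 (limma adjusted p = 0.0772). Trim31, a ligase of epithelia, gave 5.34, 5.81 and 6.09 against 6.51, 6.61 and 6.27, a difference of −0.72 (limma adjusted p = 0.133). Trim39, which acts on the cell cycle and apoptosis, gave 11.11, 11.33 and 11.00 against 11.59, 11.52 and 11.61, a difference of −0.43 (limma adjusted p = 0.218). Trim26 was the exception, because its 12-month array 2 reached the 3-month range: 10.66, 11.33 and 10.23 against 11.17, 11.23 and 11.49, a difference of −0.56 (limma adjusted p = 0.273).

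The values of Trim40 and Trim10 are given above. The 1 other tested gene inside this stretch, Rpp21, a subunit of ribonuclease P, also had ages that did not overlap, at 11.80, 11.58 and 11.75 against 12.43, 12.26 and 12.00 (difference −0.52). Among the 10 tested genes on either side, 6 of 10 were lower on each, 3 of them without overlap on one side and 2 on the other. Their median differences were −0.58 and −0.64, beside −0.85 for the 6 members and −0.11 for genes with a like mean signal. Of the 5899 genes with a like mean signal, 54.8% were lower and 21.8% were lower without overlap. The count of 6 lower genes was the same under all 16 alternatives tried. These reuse the same 6 arrays in which the set was noticed, so the unchanged count is no separate support.

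**Figure D4:**
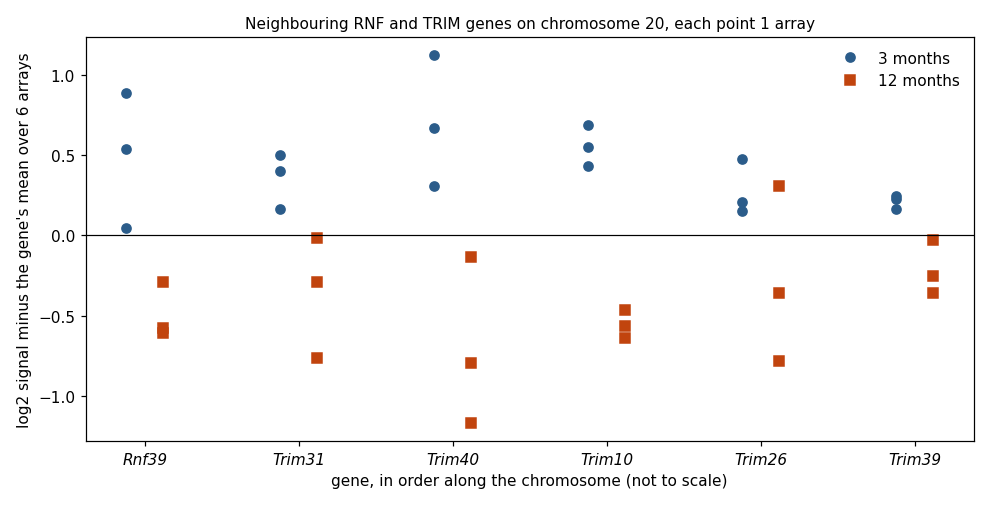
Log2 signal on each array minus the mean of the gene over the 6 arrays (y axis) for 6 neighbouring members in chromosomal order (x axis, not to scale), with 3-month arrays as blue circles and 12-month arrays as red squares. The ages are separate in all but Trim26, where the 12-month array 2 lies among the 3-month arrays.

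The annotated starts of these neighbours are shown because the genes lay together in direction, and the windows are written as before. Trim39 had no entry.
Rnf39 (chr20:1615492-1615591, minus strand): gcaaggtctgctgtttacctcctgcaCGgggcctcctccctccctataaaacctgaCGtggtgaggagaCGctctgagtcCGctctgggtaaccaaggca
Trim31 (chr20:1671687-1671786, minus strand): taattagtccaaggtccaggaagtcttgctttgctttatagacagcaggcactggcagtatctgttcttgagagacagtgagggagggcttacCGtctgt
Trim40 (chr20:1681258-1681357, plus strand): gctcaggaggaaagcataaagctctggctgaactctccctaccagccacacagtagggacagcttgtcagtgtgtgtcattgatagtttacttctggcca
Trim10 (chr20:1703445-1703544, minus strand): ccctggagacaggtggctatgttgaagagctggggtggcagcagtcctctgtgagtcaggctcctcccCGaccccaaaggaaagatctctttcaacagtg
Trim26 (chr20:1736287-1736386, minus strand): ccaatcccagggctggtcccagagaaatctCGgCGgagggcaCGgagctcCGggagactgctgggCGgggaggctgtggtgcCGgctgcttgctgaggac

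Trim26 and Rnf39 had the most CpG dinucleotides, with 6 and 4 in the window and 21 and 11 over 300 bases. Trim10, Trim40 and Trim31 held 5, 4 and 3 over 300 bases, below the median of 20 over members. TATAAA was found in Rnf39 and Trim31, CCAAT in Rnf39, Trim10 and Trim26, GGGCGG in Trim40 and Trim26, and GAAANNGAA in Trim40 and Trim26. No motif searched was common to all 5 promoters. One further pair of neighbours without overlap of the ages was Rnf125 and Rnf138 on chromosome 18, both higher, with differences of 0.66 and 0.59 and adjusted p of 0.145 and 0.125 (limma).

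The ligases depend on the rest of the ubiquitin system, which was read from lists of E1, E2, HECT, other RING and U-box, cullin, deubiquitinase and ubiquitin genes. Of 163 tested genes, 11 rose and 2 fell at an adjusted p under 0.05, which is 6.75% and 1.23% beside 4.88% and 2.98% of all genes. Of the 2 that fell, Neurl1b was above background at 3 months only. These 13 calls became 1 without the 12-month array 1 or 3, and 3 without the 3-month array 1 or 3. In the same fits the 879 calls over all genes became 121 or 151, and 173 or 256. Of the 8 E1 genes tested 2 rose: Uba6, a second activating enzyme for ubiquitin, by 2.44 (limma adjusted p = 0.00682), and Uba3, of the NEDD8-activating enzyme, by 2.45 (limma adjusted p = 0.0147). Of the 23 E2 genes tested 2 rose. Ube2d1, an E2 that works with many RING ligases, gave 9.44, 10.04 and 9.21 against 4.16, 6.25 and 6.33, a difference of 3.98 (limma SE 0.61, adjusted p = 0.0176). Ube2g1, an E2 for degradation at the endoplasmic reticulum, rose by 1.45 (limma adjusted p = 0.0444).

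Among the other ligases, Nedd4 was the 1 of 13 HECT genes that passed, with 15.17, 15.25 and 15.05 against 13.15, 13.89 and 12.80 (difference 1.88, limma adjusted p = 0.0233). Cul4b, the scaffold of a multi-subunit ligase, was the 1 of 4 cullins, and rose by 2.84 (limma adjusted p = 0.0291). Of 63 other RING and U-box genes, 3 rose and 2 fell. Bmi1, a polycomb ligase subunit, rose by 2.27 (limma adjusted p = 0.0287), the DNA repair ligase Hltf by 2.02 (limma adjusted p = 0.0383), and Topors, a ligase for ubiquitin and SUMO, by 1.29 (limma adjusted p = 0.0453). Nfx1 fell by 1.34 (limma adjusted p = 0.0470). Neurl1b, which acts on Notch ligands, was above background on no 12-month array and was at least 1.21-fold lower there. It entered the test through its 3-month arrays alone. Its limma adjusted p of 0.0318 rests on 12-month values below background and is not a test of that bound.

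Of the 48 tested genes of the deubiquitinase list 2 rose. The list was drawn partly by symbol and includes Usp6nl (difference −0.33), which is not itself a deubiquitinase. Usp8 gave 11.03, 11.03 and 11.30 against 9.86, 10.10 and 10.11, a rise of 1.10 (limma SE 0.23, adjusted p = 0.0363), and Usp7 rose by 1.49 (limma adjusted p = 0.0433). Usp8 is known to remove ubiquitin from the Rnf41 protein and so to stabilise it. The transcripts of both were higher on all 3 arrays at 12 months without overlap, as were those of 17% of all genes. The arrays do not measure protein, and a link between these rises was not tested. None of the 4 ubiquitin genes passed. The median difference was 0.17 over the E2 genes, 0.16 over the other RING and U-box genes and −0.02 over the deubiquitinase list, compared with −0.13 over all genes.

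**Figure D5:**
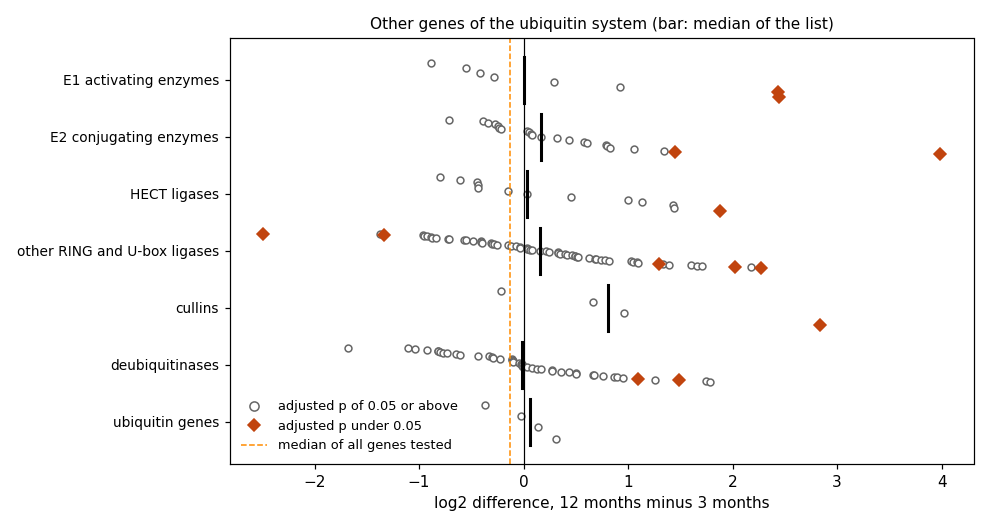
Log2 difference (x axis) of the tested E1, E2, HECT, other RING and U-box, cullin, deubiquitinase and ubiquitin genes (y axis), with red diamonds for an adjusted p under 0.05 and a black bar for the median of each list. The red diamonds lie on the higher side in all but 2 genes, Neurl1b and Nfx1, where 4.88% of all genes were called higher and 2.98% lower, and Ube2d1 reaches 3.98.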

How the data were processed

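Islet RNA of male Wistar rats at 3 and 12 months of age was measured on 1-colour Arraystar/Agilent arrays, 3 of each age, with groups taken from the labels. The 12-month array called 3 here carries no number in the labels. The deposited scanner files hold spot intensity from Agilent Feature Extraction 11.0.1.1, background-subtracted and not normalised between arrays, with the median spot and background intensity. The authors also deposited a table of normalised log2 values, which served as an alternative. Arrays have no read depth, and their number limits the precision.

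Background-subtracted intensities were put on the log2 scale, spots of 1 probe without an outlier mark were averaged, and arrays were quantile normalised. Probes well above background on at least 3 of 6 arrays were tested with limma 3.58.1 (R 4.3.3; lmFit and eBayes, two-sided, no block), with Benjamini-Hochberg adjustment over the 17941 probes tested, after a test on simulated data. Genes were named by RefSeq mRNA accession, which matched 14274 of 15323 mRNA probes; the probe with the highest mean stood for a gene. Older March symbols were updated for 7 members. A gene above background on no array of an age was given a bound, from the lowest signal among detected probes.

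The genes named were all MARCH genes, up to 10 rises and 10 falls without overlap past the adjusted or else the looser threshold, the tested members of 4 small role groups, genes just inside and outside the detection limit, and up to 2 rises and 2 falls per ubiquitin list. Topors, Trim21 and Rnf166, the Trim2 probes, the muscle TRIM genes, Rnf167 and the neighbours on chromosomes 18 and 20 were named after their values were seen. The RING-between-RING direction was likewise noticed afterwards. The members and lists were chosen with earlier results of these data known. Marker means cover genes measured on all arrays. Promoters came from RefSeq tables (GRCr8), where 84 of 103 members matched by symbol; a gene order was read from the same assembly.

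Alternatives were a 75th percentile shift, normexp correction (offset 50, on median intensity), the deposited log2 table, the detection filter, limma with trend and robust variances, the methods' t-test, the mean of all probes, a block on array number, 4 arrays that share a name ending, and leaving out each array. The methods' t-test was run without pairing.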

Additional observations from a re-analysis of the deposited data

How the results depend on the processing

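Under the alternatives the 5 members past the adjusted threshold became 10 with the normexp correction, 8 when probes had to be above background on all 6 arrays, 2 with the methods' t-test, 0 by limma with the 4 arrays that share a name ending (8 passed the looser, unadjusted threshold there), and between 1 and 5 when 1 array was left out. The 13 genes of the ubiquitin lists became 25 with normexp, 22 with all 6 arrays required, 25 with trend and robust variances, 3 with the methods' t-test, 0 with those 4 arrays, and between 1 and 12 when 1 array was left out. The calls moved over all genes too. At the adjusted threshold 879 of 11188 genes became 1239 with normexp and 1079 of 9078 with all 6 arrays required. They became 1297 with trend and robust variances and 267 with the methods' t-test. With those 4 arrays, or with a block on array number, they became 0, so a count of 0 there is not particular to the members. They ran from 121 to 1141 when 1 array was left out. The 12 members past the looser threshold became 6 with normexp and 7 with the methods' t-test. The median of the RNF genes was −0.29 with the 75th percentile shift, and it ran from −0.14 to −0.015 when 1 array was left out. The median of the TRIM genes was −0.041 with no filter, and between −0.42 and −0.045 when 1 array was left out. The difference of Marchf7 was 4.61 with the 75th percentile shift and 3.28 with normexp.

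Of the 5 members called, Trim10 alone was among the 2 of the methods' t-test. The other was Rnf166, at 11.86, 11.58 and 11.88 against 12.66, 12.66 and 12.65 (difference −0.88, limma adjusted p = 0.0555). Rnf166 also passed with the 75th percentile shift, normexp, the deposited table and trend and robust variances. It passed as well with all 6 arrays required and with no filter, but in no fit that left out 1 array. Rnf26 and Trim43a each passed in 6 of 16 alternatives. Differences that changed sign were those of Marchf3, −0.087 with the 75th percentile shift; of Marchf5, −0.20 with the 4 arrays, −0.039 without the 12-month array 3 and −0.13 without the 3-month array 1 (range −0.13 to 0.21 when 1 array was left out); and of Marchf8, −0.22 with the 75th percentile shift and −0.085 without the 3-month array 3 (range −0.085 to 0.19). The causes were not tested.

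Numbers 1 and 2 occur at both ages, but arrays with the same number did not deviate together (correlations of −0.010 and −0.31). Correlations for only these 2 numbers cannot decide whether the arrays were paired. The supplement of the study names a paired t-test, and the labels do not say which arrays form a pair. With a replicate block on the numbered pairs, 0 members and 0 genes of the ubiquitin lists passed by limma (10 members passed the looser, unadjusted threshold), 4 of 6 RING-between-RING genes were lower, the RNF median changed sign to 0.037, the TRIM median was −0.033, Trim35 had an adjusted p of 0.224, Marchf5 was −0.052 and Marchf8 −0.15; this fit holds 4 arrays.

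Signal over background limits the dim members: 12 were not tested and 7 of the 91 tested were below background on at least 1 array.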
